A study of Mus musculus with 12 samples.

Results

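The EGR and AP-1 immediate early genes described here were 10 mouse genes, Egr1, Egr2, Egr3, Fos, Fosb, Fosl1, Fosl2, Jun, Junb and Arc, taken by symbol from a table of raw counts for 49315 genes. All 10 were found and all 10 passed the filter on low counts, which left 16565 genes for testing. RNA was sequenced in bulk from primary chondrocytes, the cells that build cartilage, taken from the epiphyses (the cartilage ends of long bones) of mice 5 days old. There were 4 genotypes with 3 libraries each: wild type (WT), Phlpp1-/- (Phlpp1 KO), Phlpp2-/- (Phlpp2 KO) and Phlpp1/2-/- (Phlpp1/2 KO). PHLPP1 and PHLPP2 are phosphatases that remove phosphate from AKT and from protein kinase C. The labels give no allele and no Cre driver, so each knockout is taken as labelled. All 12 samples were labelled female. The strain is labelled C57BL6 for 8 samples, C57BL7 for Phlpp2 KO 3, and C57BL8, C57BL9 and C57BL10 for the Phlpp1/2 KO libraries 1, 2 and 3. The labels do not say if animals were pooled, so p-values measure only the spread between these samples, which may be technical. In every group the cells had been freed with collagenase, frozen and thawed, and then cultured overnight with serum until RNA was extracted.

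Immediate early genes are transcribed within minutes of a stimulus such as serum, a growth factor or mechanical strain, without new protein synthesis. ERK and other kinases activate factors such as SRF, the ternary complex factors and CREB, which already sit on their promoters. EGR proteins are zinc finger factors that bind GC-rich DNA. AP-1 is a dimer of basic leucine zipper proteins: the JUN proteins pair with each other or with FOS proteins, while FOS proteins need a JUN partner. In mouse growth cartilage the FOS family member encoded by Fosl2 is needed for normal chondrocyte hypertrophy. Arc is an immediate early gene best known in neurons, where its protein acts in synaptic plasticity.

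The promoters of 4 members are shown as examples that carry sites for the factors that link kinases to immediate early genes. Windows from RefSeq (GRCm38.p6) were searched for 6 of the 10 members, Fos, Fosb, Egr2, Jun, Junb and Fosl2. No window was found for Egr3, Fosl1 and Arc, and Egr1 was left out of the search. Each line below holds the 250 bases before an annotated start, 5′ to 3′ on the gene's own strand, and capitals mark the motifs found. Position -1 is the base just before the start.

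Fos chr12:85473640-85473889, plus strand: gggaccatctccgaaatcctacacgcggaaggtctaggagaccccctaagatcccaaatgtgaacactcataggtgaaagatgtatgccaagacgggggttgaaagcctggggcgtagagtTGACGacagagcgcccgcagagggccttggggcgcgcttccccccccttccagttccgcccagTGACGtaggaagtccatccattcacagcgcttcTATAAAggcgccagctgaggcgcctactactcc
Fosb chr7:19310046-19310295, minus strand: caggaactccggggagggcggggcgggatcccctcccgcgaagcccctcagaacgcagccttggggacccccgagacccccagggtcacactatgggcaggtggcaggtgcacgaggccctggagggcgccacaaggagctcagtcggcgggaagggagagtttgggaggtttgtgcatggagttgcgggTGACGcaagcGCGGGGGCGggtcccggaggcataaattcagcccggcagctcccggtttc
Egr2 chr10:67537619-67537868, plus strand: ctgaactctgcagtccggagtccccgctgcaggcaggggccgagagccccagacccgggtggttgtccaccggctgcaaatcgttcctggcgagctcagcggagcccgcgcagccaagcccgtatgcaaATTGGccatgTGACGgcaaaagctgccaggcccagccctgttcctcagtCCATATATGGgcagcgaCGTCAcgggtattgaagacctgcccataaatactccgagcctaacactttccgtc
Jun chr4:95052223-95052472, minus strand: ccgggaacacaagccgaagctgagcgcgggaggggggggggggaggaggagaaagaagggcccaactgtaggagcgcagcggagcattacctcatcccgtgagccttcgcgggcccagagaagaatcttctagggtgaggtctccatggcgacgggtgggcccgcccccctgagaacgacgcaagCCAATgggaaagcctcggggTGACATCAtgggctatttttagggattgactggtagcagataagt

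The Fos window held TGACG, the half-site bound by CREB and ATF proteins, at -129 to -125 and at -66 to -62, and TATAAA at -33 to -28. The Fosb window held TGACG at -60 to -56 and GCGNGGGCG, the EGR site, at -50 to -42. RefSeq gave 5 windows for Egr2, and the 1 shown was picked for its motifs: another held a different CArG box and no TGACG, and another held no motif. The Egr2 window shown held a CArG box, the site of SRF, at -72 to -63 (CCATATATGG), between TGACG at -111 to -107 and its reverse complement at -55 to -51. The Jun window held TGACNTCA, a site of JUN and ATF dimers, at -45 to -38. Of the windows not shown, that of Junb held TGACG at -106 to -102 and that of Fosl2 held GCGNGGGCG at -79 to -71. Both strands were searched for these motifs, for TGANTCA, the usual AP-1 site, and for CCAAT, and TGACG lies inside TGACNTCA where N is G. Among all 32851 RefSeq promoter windows of that length, 17.8% held TGACG, 6.75% TGANTCA, 7.49% TGACNTCA, 12.4% TATAAA, 4.7% GCGNGGGCG, 33.8% CCAAT and 1.47% a CArG box. These are matches of letters, and binding was not measured.

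Library totals ran from 21706337 to 33115345 counts, so 1 count was worth 0.0295 to 0.0453 CPM, the count scaled to library depth. CPM used TMM factors, and fold changes and tests came from edgeR's quasi-likelihood test on all 12 libraries. Genes were called at an adjusted p under 0.05 (Benjamini-Hochberg over all tested genes). Of the targeted genes, Phlpp1 matched its labels, at 39.7 ± 4.35 CPM (SD, n = 3) in WT and 41.3 ± 3.33 in Phlpp2 KO against 9.16 ± 0.353 in Phlpp1 KO and 8.22 ± 0.568 in Phlpp1/2 KO. Phlpp2 stood at 25.5 ± 2.85 CPM in WT, 24.2 ± 1.23 in Phlpp1 KO, 17.8 ± 1.43 in Phlpp2 KO and 10.9 ± 0.611 in Phlpp1/2 KO, so that its reads were reduced but present in the Phlpp2 KO libraries. Xist, which is expressed from an inactive X chromosome, was at 278 to 587 CPM in 10 libraries but at 13.9 CPM in Phlpp1 KO 1 and 3.77 CPM in Phlpp1/2 KO 1, against the label female. For the members, calls or leading fold changes of the comparisons that use those libraries are given with and without them. Results for the related gene lists are given only with them. The 9 chondrocyte markers summed to 26724 to 49470 CPM per library, led by Col2a1 (20753 to 40258 CPM), and each was detected in every library.

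Levels differed widely between the members. Per kb of annotated exon, mean levels over all 12 libraries were 61.0 CPM for Fosl1, 37.5 for Junb, 32.9 for Jun, 19.2 for Fosl2 and 17.1 for Egr1. They were 7.4 CPM per kb for Fos, 3.17 for Arc, 0.634 for Fosb, 0.608 for Egr2 and 0.165 for Egr3. The value for Fosl1 is uncertain, because 57.2% of its exon bases lie under Ccdc85b on the opposite strand and the strand setting is not stated. The plot of CPM by library shows that Fos, Egr1, Egr2 and Arc had their lowest group mean in WT. Fosb, Fosl1, Jun and Egr3 had theirs in Phlpp2 KO, and Fosl2 and Junb in Phlpp1 KO.

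**Figure D1:**
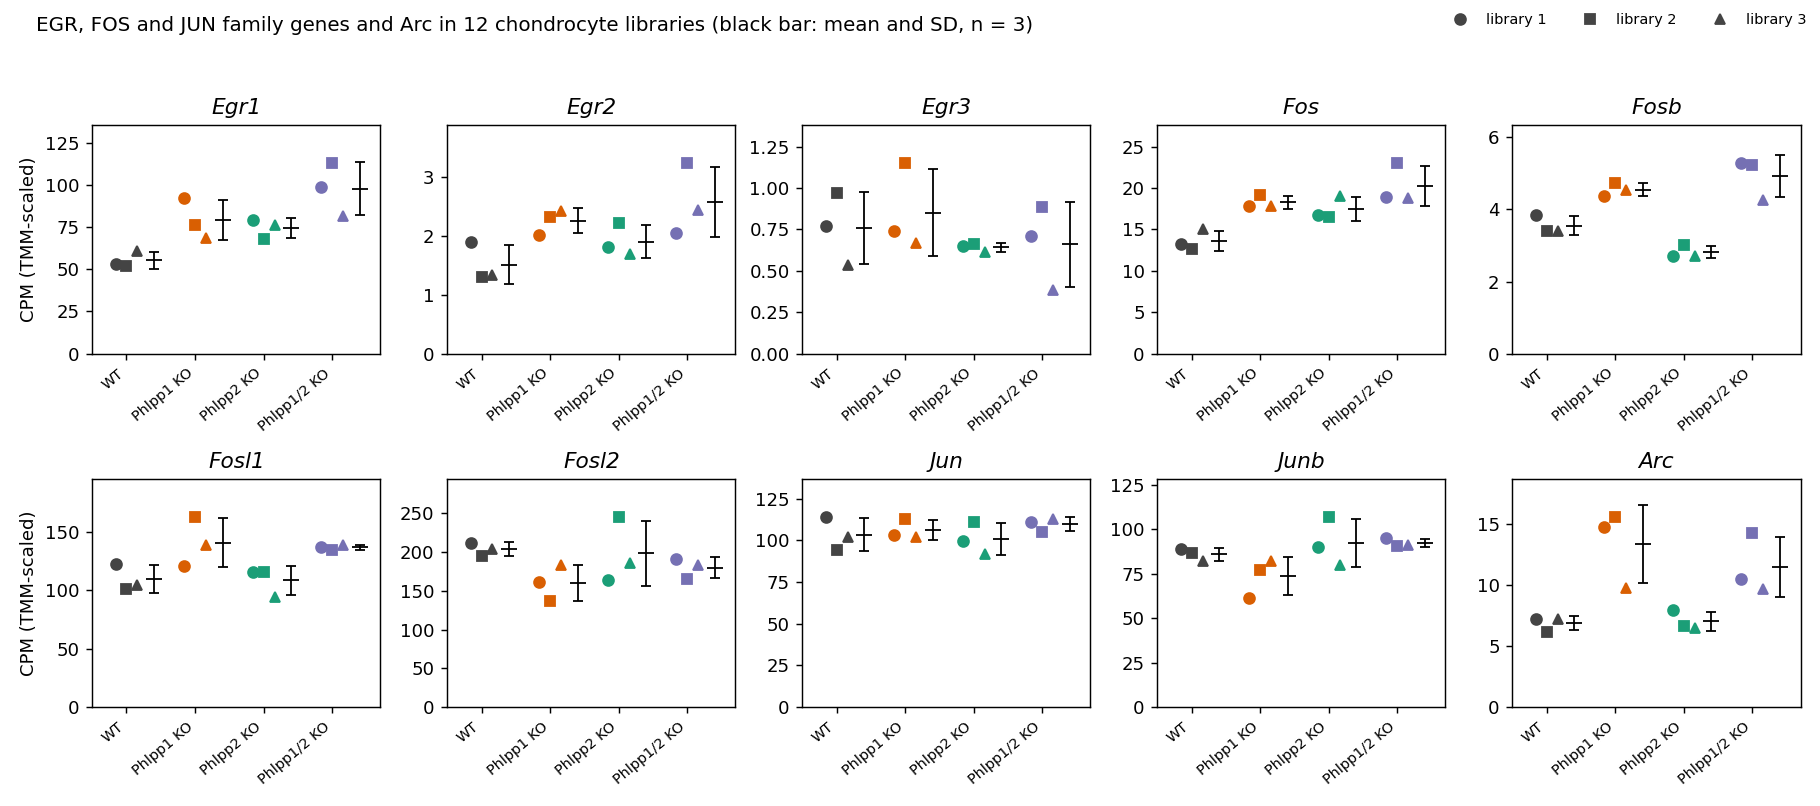
TMM-scaled CPM (y axis, from 0, with a scale of its own for each gene) of the 10 members in the 3 libraries of each genotype, with a marker shape for the library number and a black bar for mean and SD. Arc lies at 9.66 to 15.6 CPM in the 6 libraries without Phlpp1 and at 6.2 to 7.96 CPM in the 6 with it, and Fosb at 4.25 to 5.28 against 2.71 to 3.85 CPM.

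The FOS family of these cells consisted mainly of Fosl1 and Fosl2, which encode FRA1 and FRA2, members that lack the strong transactivation domain of FOS and FOSB. Per kb of annotated exon, Fosl1 made up 66.2% of the family's CPM in WT, 73.2% in Phlpp1 KO, 65.3% in Phlpp2 KO and 70.6% in Phlpp1/2 KO. Fosl2 made up 25.9%, 17.7%, 25.0% and 19.5% in the same order. Fos supplied 7.14% to 9.18% and Fosb 0.553% to 0.828% of the genotype means. All these shares depend on Fosl1, whose reads cannot be told from those of Ccdc85b over 57.2% of its exon bases. The family sum was 81.3 ± 6.74 CPM per kb in WT, 94.4 ± 9.37 in Phlpp1 KO, 81.8 ± 7.8 in Phlpp2 KO and 95.3 ± 1.14 in Phlpp1/2 KO.

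**Figure D2:**
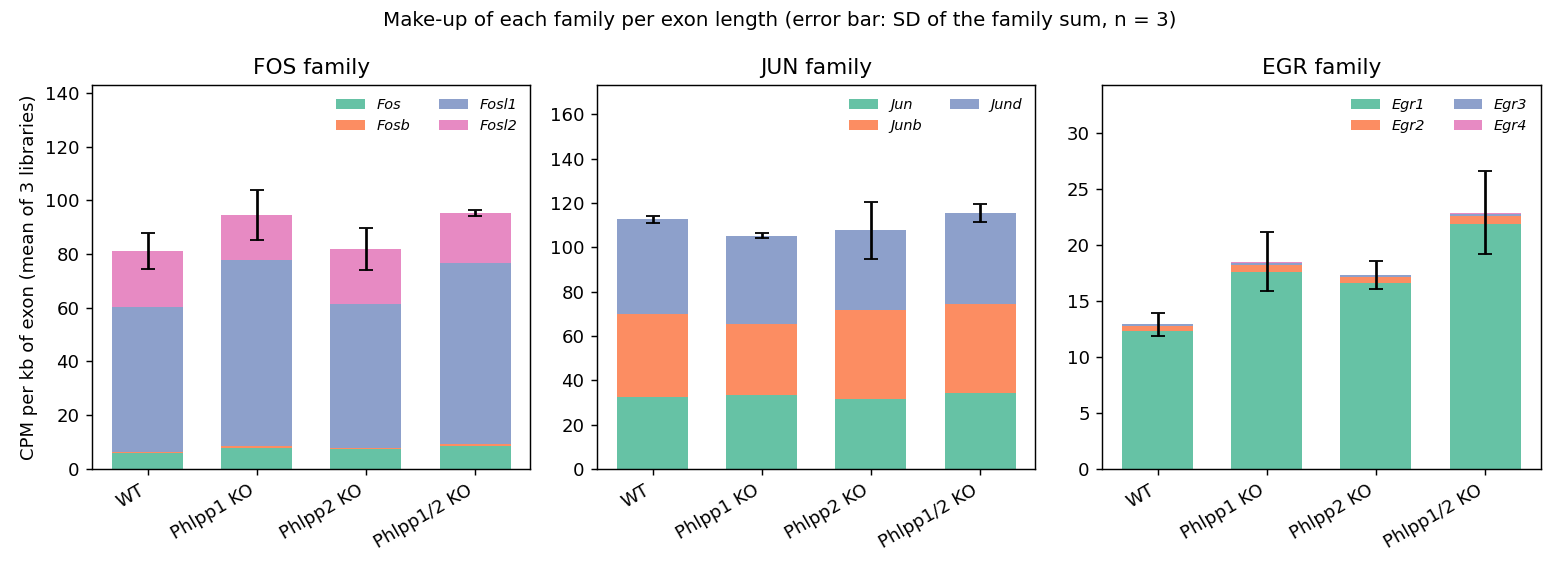
CPM per kb of exon (y axis, from 0) of the FOS, JUN and EGR family genes, stacked, as the mean of 3 libraries of each genotype, with the SD of the family sum. Fosl1 fills 65.3% to 73.2% of the FOS bar, Jun, Junb and Jund each fill 28.8% to 38.1% of the JUN bar, and Egr1 fills 94.9% to 95.7% of the EGR bar. The Fosl1 part is uncertain because of its overlap with Ccdc85b on the opposite strand.

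Fosb (chromosome 7, 19302696 to 19310051, mm10; ENSMUSG00000003545) encodes a FOS protein that pairs with JUN proteins. Its CPM was 3.85, 3.39 and 3.4 in WT, 4.37, 4.73 and 4.54 in Phlpp1 KO, 2.71, 3.01 and 2.72 in Phlpp2 KO, and 5.28, 5.23 and 4.25 in Phlpp1/2 KO, from 71 to 171 counts per library. The order of means was Phlpp2 KO (2.82), WT (3.55), Phlpp1 KO (4.55) and Phlpp1/2 KO (4.92), and the libraries of Phlpp1 KO and Phlpp1/2 KO overlapped while the other neighbours did not. All 6 libraries without Phlpp1 were above all 6 libraries with it.

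Fos (chromosome 12, 85473890 to 85477273; ENSMUSG00000021250), the founding FOS gene, had 13.2, 12.6 and 15 CPM in WT, 17.8, 19.2 and 17.8 in Phlpp1 KO, 16.8, 16.5 and 19.1 in Phlpp2 KO, and 18.9, 23 and 18.8 in Phlpp1/2 KO. Every knockout library was above every WT library. How many of all tested genes did so was not counted. Single comparisons with WT had no overlap, in either direction, for 28.2% (Phlpp1 KO), 19.1% (Phlpp2 KO) and 18.9% (Phlpp1/2 KO) of all tested genes. The order of means was WT (13.6), Phlpp2 KO (17.5), Phlpp1 KO (18.3) and Phlpp1/2 KO (20.2), with overlap between neighbours among the knockouts.

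Fosl1 (chromosome 19, 5447547 to 5455946; ENSMUSG00000024912) had 123, 101 and 105 CPM in WT, 121, 163 and 139 in Phlpp1 KO, 116, 116 and 94.5 in Phlpp2 KO, and 137, 135 and 139 in Phlpp1/2 KO. Means were alike in Phlpp2 KO (109) and WT (109.6), and higher in Phlpp1/2 KO (137) and Phlpp1 KO (141), but WT and Phlpp1 KO overlapped through WT 1 and Phlpp1 KO 1. Of its 2033 exon bases, 1163 (57.2%) lie under Ccdc85b on the opposite strand, and without a stated strand setting reads of the 2 genes cannot be told apart there. Ccdc85b counts were 34.5 ± 0.843, 31.8 ± 0.969, 37.4 ± 2.3 and 33.1 ± 2 CPM in WT, Phlpp1 KO, Phlpp2 KO and Phlpp1/2 KO.

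Fosl2 (chromosome 5, 32135801 to 32157842; ENSMUSG00000029135) ran the other way. It had 212, 195 and 204 CPM in WT, 161, 137 and 183 in Phlpp1 KO, 164, 245 and 185 in Phlpp2 KO, and 191, 165 and 183 in Phlpp1/2 KO. The libraries of Phlpp1 KO and of Phlpp1/2 KO lay below those of WT, and those of Phlpp2 KO, at 164 to 245, spanned both.

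Jun and Junb varied less. Jun (chromosome 4, 95049034 to 95052222; ENSMUSG00000052684), the main partner of FOS proteins, stood at 103 ± 9.8 CPM in WT, 106 ± 5.8 in Phlpp1 KO, 101 ± 9.67 in Phlpp2 KO and 109.6 ± 4.19 in Phlpp1/2 KO, and the libraries of all neighbours overlapped. Junb (chromosome 8, 84974484 to 84978718; ENSMUSG00000052837), a JUN protein that often acts more weakly than JUN, stood at 86 ± 3.59, 73.7 ± 10.9, 92.5 ± 13.9 and 92.5 ± 2.27 CPM in the same order. The low Junb mean of Phlpp1 KO came with 61.5 CPM in library 1, beside 77.2 and 82.4 in the others, and library 1 is a low-Xist library. Junb lies 24.9 Mb from Phlpp2, and no other member shares a chromosome with a targeted gene. Opposite-strand genes overlap 7.28% of the exon bases of Jun (Junos) and 7.52% of those of Junb (Prdx2). Per kb, the JUN family, Jund included, summed to 113 ± 1.45, 105 ± 0.925, 108 ± 12.7 and 115 ± 4.22 CPM in WT, Phlpp1 KO, Phlpp2 KO and Phlpp1/2 KO, with shares of 28.8% Jun, 33.2% Junb and 38.0% Jund in WT.

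Egr1 carried nearly all of the EGR signal. Egr1 (chromosome 18, 34859823 to 34864984; ENSMUSG00000038418) had 53, 52 and 61 CPM in WT, 92.1, 76.5 and 68.7 in Phlpp1 KO, 79.3, 67.8 and 76.6 in Phlpp2 KO, and 99.1, 113 and 81.6 in Phlpp1/2 KO. As with Fos, every knockout library was above every WT library, and neighbouring knockout groups overlapped. The share of all tested genes with that pattern was not counted, and the shares given for Fos apply here too. Per kb, the EGR sum was 13.0 ± 1.02 CPM in WT, 18.6 ± 2.64 in Phlpp1 KO, 17.4 ± 1.26 in Phlpp2 KO and 22.9 ± 3.71 in Phlpp1/2 KO.

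Egr2 (chromosome 10, 67535475 to 67542188; ENSMUSG00000037868), known for its role in myelinating cells, had 35 to 106 counts per library. Its CPM was 1.9, 1.3 and 1.34 in WT, 2.02, 2.33 and 2.43 in Phlpp1 KO, 1.81, 2.22 and 1.69 in Phlpp2 KO, and 2.06, 3.24 and 2.45 in Phlpp1/2 KO. Both groups without Phlpp1 lay above WT, and each group overlapped its neighbour in the order of means. Egr3 (chromosome 14, 70077203 to 70082614; ENSMUSG00000033730) had 13 to 35 counts per library, or 0.384 to 1.15 CPM, and every group overlapped its neighbours.

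Arc (chromosome 15, 74669083 to 74672570; ENSMUSG00000022602) divided the libraries by Phlpp1 as Fosb did. Its CPM was 7.24, 6.2 and 7.19 in WT, 14.8, 15.6 and 9.75 in Phlpp1 KO, 7.96, 6.68 and 6.48 in Phlpp2 KO, and 10.5, 14.3 and 9.66 in Phlpp1/2 KO. The spread was wider where Phlpp1 was absent, at an SD of 3.19 in Phlpp1 KO and 2.45 in Phlpp1/2 KO against 0.588 in WT and 0.802 in Phlpp2 KO. Neuron markers are given beside Arc because it is best known in neurons, and their part in its level was not tested. The summed level of 5 neuron markers was 7.6 to 9.15 CPM in WT, 5.95 to 7.47 in Phlpp1 KO, 7.41 to 9.95 in Phlpp2 KO and 6.85 to 8.54 in Phlpp1/2 KO. Most of that sum was Camk2a (4.37 to 6.73 CPM) and Tubb3 (1.51 to 3.36 CPM), while Snap25, Rbfox3 and Syt1 reached at most 0.0328, 0.129 and 0.135 CPM.

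The members had been gathered with earlier results of these libraries known, among them the calls of Arc in Phlpp1 KO against WT and of Egr1 and Fos in Phlpp1/2 KO against WT. Those comparisons, the interaction and both 6 against 6 contrasts, which hold the same comparisons, are therefore given for the members as descriptions. No p-value of a member is printed for them, and calls and counts under a p threshold there are not tests of the members. In Phlpp1 KO against WT, where 0.537% of all tested genes were called, Arc was the 1 member called. The 89 genes behind that share became 16 without WT 2 and 647 without Phlpp1/2 KO 3. Limma-voom did not call Arc. The log2 fold change of Arc was 0.97 (SE 0.19), a 1.96-fold higher level. Log2 fold changes of the others were 0.59 (SE 0.22) for Egr2, 0.52 (SE 0.13) for Egr1, 0.43 (SE 0.10) for Fos, 0.36 (SE 0.13) for Fosb, 0.36 (SE 0.11) for Fosl1, 0.17 (SE 0.33) for Egr3, 0.04 (SE 0.08) for Jun, -0.22 (SE 0.11) for Junb and -0.35 (SE 0.14) for Fosl2. The groups did not overlap for 5 members that were higher (Egr1, Egr2, Fos, Fosb and Arc) and 1 that was lower (Fosl2), beside 28.2% of all tested genes without overlap in either direction. The median log2 fold change of the members was 0.36 and that of all tested genes -0.013. Arc stayed called in 5 of 12 fits that each left out 1 library, among them the fit without Phlpp1 KO 3, where its log2 fold change was 1.16. It was not called without any 1 of the 3 WT libraries, Phlpp1 KO 1, Phlpp1 KO 2, Phlpp2 KO 3 or Phlpp1/2 KO 1. Without both low-Xist libraries its log2 fold change was 0.91 and it was not called. Fewer cells of a type and less RNA per cell cannot be told apart in bulk samples.

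In Phlpp1/2 KO against WT, which shares its WT libraries with the comparison above, 0.235% of all tested genes were called, and Egr1 and Fos were the 2 members called. Egr1 had a log2 fold change of 0.83 (SE 0.13) and Fos of 0.57 (SE 0.10), 1.77-fold and 1.49-fold higher levels. Egr2 stood at 0.79 (SE 0.21), Arc at 0.74 (SE 0.19), Fosb at 0.47 (SE 0.13) and Fosl1 at 0.32 (SE 0.11) on the log2 scale. The groups did not overlap for 7 members that were higher and 1, Fosl2, that was lower, beside 18.9% of all tested genes. The call of Egr1 held in 7 of 12 fits that left out 1 library each and was lost without any 1 of the WT libraries, Phlpp1/2 KO 1 or Phlpp1/2 KO 2. The call of Fos held in 4 of 12, those without any 1 of the Phlpp2 KO libraries or without Phlpp1/2 KO 3, and was lost without any 1 of the others. Without both low-Xist libraries the log2 fold changes were 0.83 for Egr1, still called, and 0.63 for Fos, no longer called. The call of Fos was also lost with limma-voom and with the compared groups alone, that of Egr1 with no filter on low counts, and both with the replicate number as a block.

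The effect of losing Phlpp1 on a Phlpp2 KO background shares no library with Phlpp1 KO against WT, although its Phlpp1/2 KO libraries are also in the comparison of Phlpp1/2 KO with WT. Fosb rose, from 2.82 ± 0.169 to 4.92 ± 0.58 CPM, by 0.80 on the log2 scale (SE 0.13, adjusted p = 0.0469). It was the 1 member called of 10, beside 0.0724% of all tested genes, or 12 genes, which became 132 without Phlpp1/2 KO 3 and 4 without Phlpp1/2 KO 1. Arc stood at 0.70 (SE 0.19, adjusted p = 0.41), Egr2 at 0.44 (SE 0.21, adjusted p = 0.569), Egr1 at 0.40 (SE 0.13, adjusted p = 0.516), Fosl1 at 0.33 (SE 0.11, adjusted p = 0.516) and Fos at 0.21 (SE 0.10, adjusted p = 0.569). Jun, Fosl2, Egr3 and Junb lay between -0.14 and 0.12, with adjusted p-values of 0.66 to 0.998. The groups did not overlap for Egr1, Fosb, Fosl1 and Arc, all higher in Phlpp1/2 KO, beside 12.4% of all tested genes in either direction and 7.52% in the higher one. The median log2 fold change was 0.27 for the members and 0.001 for all tested genes. DESeq2 called Fosb too. Limma-voom (adjusted p = 0.0585) did not, nor did edgeR with the replicate number as a block (adjusted p = 0.0781) or on the compared groups alone (adjusted p = 0.525). The call of Fosb was close to the threshold: of 12 fits that left out 1 library each it held only without Phlpp1/2 KO 3 (adjusted p = 0.0225), and it was lost without any 1 of the other 11, with an adjusted p of up to 0.37 without Phlpp1/2 KO 1. Its log2 fold change stayed between 0.75 and 0.89 over those 12 fits, and was 0.75 without both low-Xist libraries (adjusted p = 0.584).

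**Figure D3:**
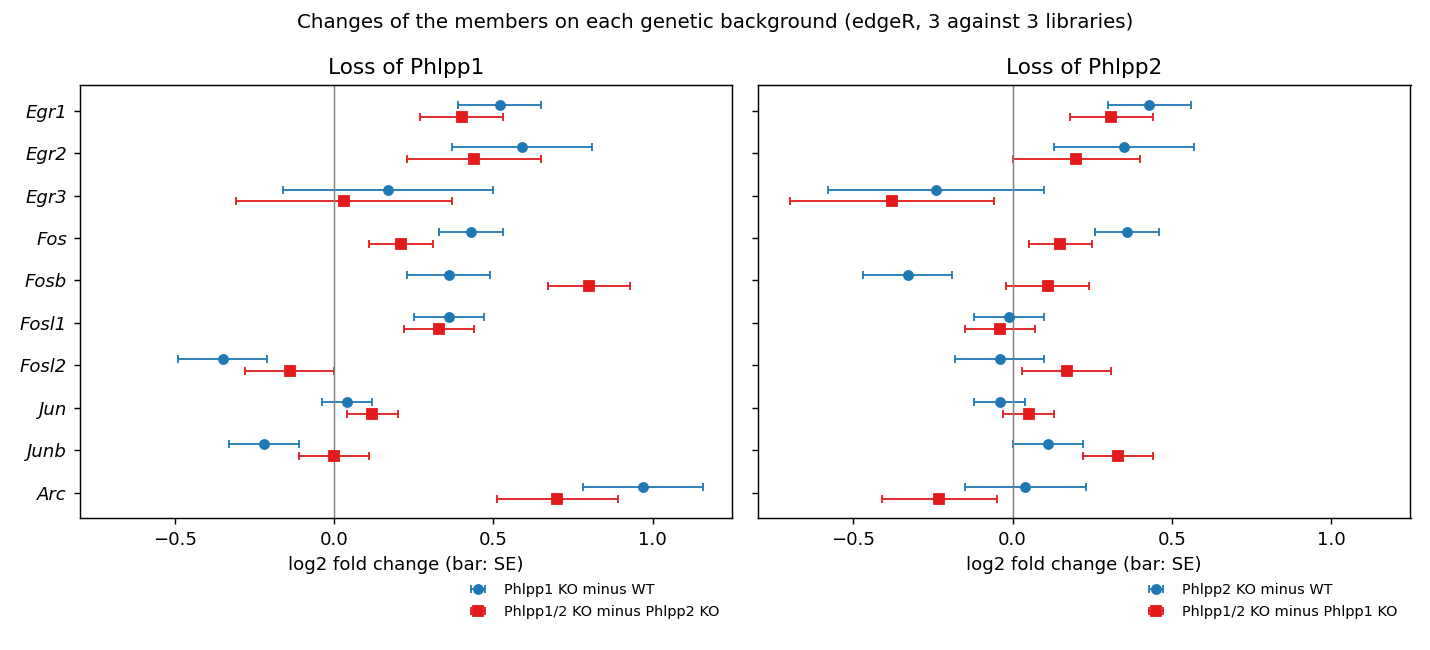
Log2 fold change with its SE (x axis) of each member on loss of Phlpp1 (left) and of Phlpp2 (right), on the WT background (blue circles) and on the background of the other knockout (red squares). On loss of Phlpp1, Arc lies at 0.97 and 0.70, Fosb at 0.36 and 0.80 and Egr1 at 0.52 and 0.40, and on loss of Phlpp2 Fosb lies at -0.33 and 0.11.

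Pooled over both backgrounds, 6 libraries without Phlpp1 against 6 with it, Arc had a log2 fold change of 0.84 (SE 0.13) and Fosb of 0.58 (SE 0.09). Both were called, beside 0.592% of all tested genes (98 genes, which became 38 without WT 2 and 568 without Phlpp2 KO 1), and they were the 2 members whose groups did not overlap, beside 1.09% of all tested genes. This contrast includes the libraries of the comparisons known before, so the 2 calls are a description. Egr2 stood at 0.51, Egr1 at 0.46, Fosl1 at 0.35, Fos at 0.32, Egr3 at 0.10, Jun at 0.08, Junb at -0.11 and Fosl2 at -0.24, with a median of 0.33 over the 10 members and 0.003 over all tested genes. Fosb stayed called in 12 of 12 fits that left out 1 library each, with log2 fold changes of 0.56 to 0.64. Arc stayed called in 10 of 12 and was not called without WT 2 or without Phlpp2 KO 3, at log2 fold changes of 0.80 and 0.81. Without both low-Xist libraries neither was called, at log2 fold changes of 0.58 for Fosb and 0.83 for Arc.

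Loss of Phlpp2 called no member on either background. Phlpp2 KO against WT reuses the WT libraries of the comparisons known before, and Phlpp1/2 KO against Phlpp1 KO takes all its libraries from them. The p-values of both, and the counts under a p threshold, are therefore not independent of how the members were chosen. In Phlpp2 KO against WT, where 0.121% of all tested genes were called, Egr1 stood at 0.43 on the log2 scale (SE 0.13, adjusted p = 0.219), Fos at 0.36 (SE 0.10, adjusted p = 0.206) and Fosb at -0.33 (SE 0.14, adjusted p = 0.315). The groups did not overlap for these 3 members, beside 19.1% of all tested genes. The other 7 lay between -0.24 and 0.35 with adjusted p-values of 0.528 to 0.974, and at an unadjusted p under 0.05 there were 3 members and 2281 of all tested genes. DESeq2 and limma-voom called none of the 10 either. In Phlpp1/2 KO against Phlpp1 KO, where 0.0121% of all tested genes were called, Junb stood at 0.33 (SE 0.11) and Egr1 at 0.31 (SE 0.13), both with an adjusted p of 0.626, and Junb was the 1 member whose groups did not overlap, beside 13.2% of all tested genes. Junb stood at 0.18 and Egr1 at 0.42 without both low-Xist libraries, with no member called. At an unadjusted p under 0.05 there were 2 members and 1308 of all tested genes, and DESeq2 and limma-voom called none of the 10. Pooled over both backgrounds, 6 libraries without Phlpp2 against 6 with it, Egr1 stood at 0.37 (SE 0.09), Fos at 0.25 (SE 0.07) and Junb at 0.22 (SE 0.08), with 0.0906% of all tested genes called, no member called and every member overlapping. These values were 0.43, 0.27 and 0.15 without both low-Xist libraries, and no member was called. At an unadjusted p under 0.05 there were 3 members and 1150 of all tested genes. DESeq2 called Egr1 in that contrast and limma-voom called no member.

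The interaction, the effect of losing Phlpp1 without Phlpp2 minus that with it, contains the known values of Phlpp1 KO and WT and is given as a description. No member was called, beside 0.0483% of all tested genes, or 8 genes, which became 1196 without Phlpp1/2 KO 3. The value for Fosb was 0.44 (SE 0.18), and 0.34 without both low-Xist libraries. Its log2 fold change on loss of Phlpp1 was 0.36 with Phlpp2 and 0.80 without it. The other 9 lay between -0.27 and 0.22. At an unadjusted p under 0.05 edgeR had 1 member and 2410 of all tested genes, and DESeq2 and limma-voom called none of the 10.

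Genes around the members were read from lists of related genes, and edgeR called no gene of the 7 lists below in any of the 8 contrasts, nor did limma-voom. In the 6 against 6 Phlpp1 contrast, DESeq2 called Plk3, Spry4, Dusp5 and Hbegf among them, beside 2.45% of all tested genes. In Phlpp1 KO against WT, beside 6.01% of all tested genes, its calls included Klf6, Rps6ka1, Dusp6, Lif, Mmp13, Pdgfa, Hsp90aa1, Hspa1a and Hspa1b. It called Ier2 in Phlpp1/2 KO against WT (0.99% of all tested genes) and Rps6ka1 in Phlpp2 KO against WT (1.92%). In the interaction (3.87%) its calls included Braf and Hsp90aa1. In the 6 against 6 Phlpp1 contrast, genes at an unadjusted p under 0.05 numbered 4 of 15 for the other EGR and AP-1 family genes, 11 of 35 for the other immediate early genes, 0 of 9 for upstream factors, 5 of 20 for kinases, 4 of 12 for ERK feedback genes, 7 of 17 for targets and 3 of 9 for heat shock genes, beside 2379 of all 16565. Among 15 tested genes of the other EGR and AP-1 family genes and NAB corepressors, the median log2 fold change of the 6 against 6 Phlpp1 contrast was 0.01. Nab2, a corepressor that binds EGR proteins and is itself an EGR target, stood at 0.21 (53.9 ± 1.73 CPM in the 6 libraries with Phlpp1 and 62.5 ± 6.12 in those without). The 35 tested members of the other immediate early genes had a median of 0.06, from -0.47 to 0.37. Plk3, a polo-like kinase, stood at 0.37, Klf6, a zinc finger factor, at 0.21 and Ier2, a short-lived nuclear protein, at 0.17. In none of the 35 did the 6 libraries lie apart from the other 6, as they did in 1.09% of all tested genes.

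In Phlpp1/2 KO against Phlpp2 KO, the 35 other immediate early genes had a median log2 fold change of 0.08, with 26 higher and 9 lower. Plk3 stood at 0.36, Ier2 at 0.19 and Sgk1, a kinase of the AKT group of AGC kinases, at -0.30, each with an adjusted p of 0.516. The groups did not overlap for 3 of the 35 that were higher and 1 that was lower, Ier2 and Sgk1 among them, beside 12.4% of all tested genes.

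**Figure D4:**
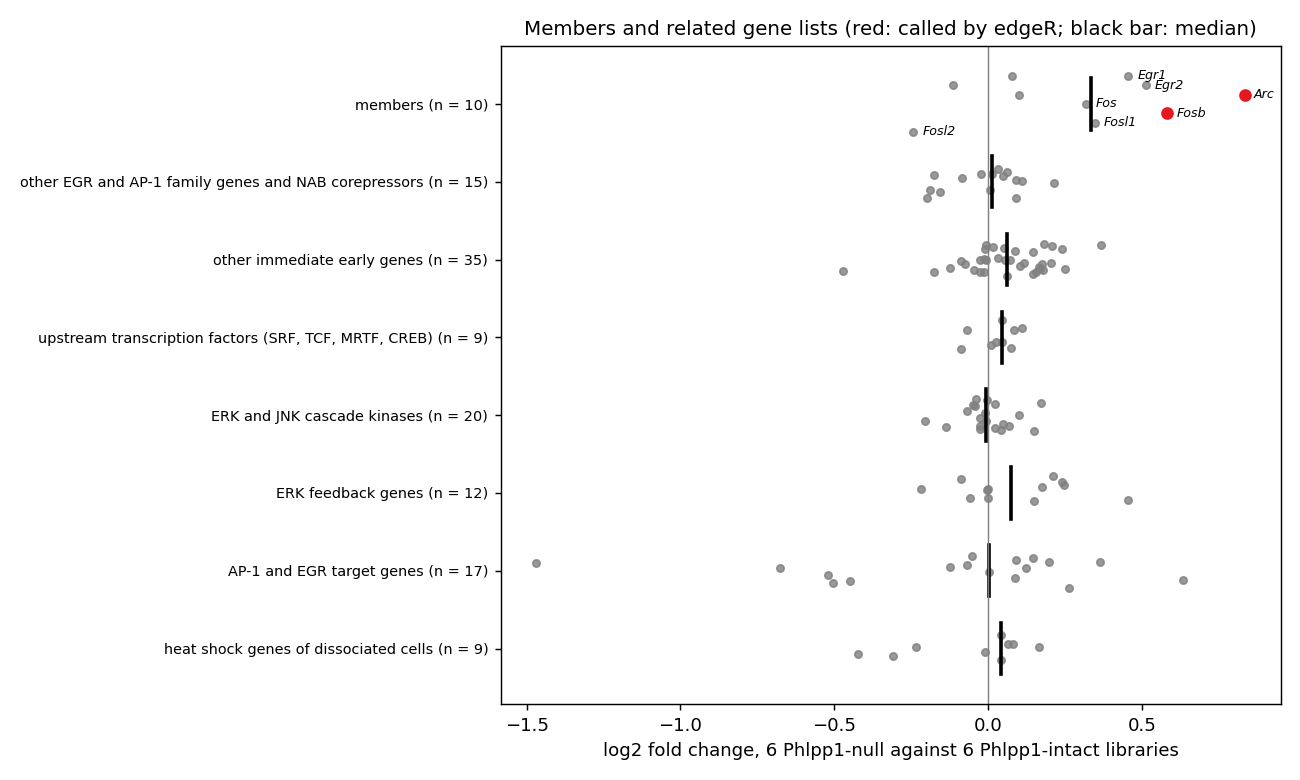
Log2 fold change of 6 Phlpp1-null against 6 Phlpp1-intact libraries (x axis) for each tested gene of the members and of 7 lists of related genes, with called genes in red and a black bar at each list's median. The members' median is 0.33, the medians of the other lists lie between -0.01 and 0.07, and Fosb and Arc are the 2 genes in red. The members were chosen with results of libraries in this contrast known, so their place beside the lists is a description and not a test.

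The signalling steps above the members showed no gene called by edgeR at the RNA level. Of 20 tested kinases and RAS genes of the ERK and JNK cascades, Hras stood at 0.20 (SE 0.07, adjusted p = 0.516) in Phlpp1/2 KO against Phlpp2 KO. The 9 upstream transcription factors had medians of 0.04 in the 6 against 6 Phlpp1 contrast and 0.03 in Phlpp1/2 KO against Phlpp2 KO. Phosphorylation, through which these kinases and factors act, was not measured.

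Spry4, an inhibitor of receptor tyrosine kinase signalling, was among 12 tested genes that ERK signalling induces and that feed back on it. It was the 1 of the 12 whose 6 libraries without Phlpp1 lay above the 6 with it (12.9 ± 0.863 against 10.8 ± 0.618 CPM). The nearest libraries stood at 12.1 and 11.8 CPM, and 1.09% of all tested genes had no overlap there in either direction. In Phlpp1/2 KO against Phlpp2 KO, Spry4 stood at 0.32 (SE 0.09, adjusted p = 0.436) and Spry2 at 0.24 (SE 0.09, adjusted p = 0.516). Dusp5, a nuclear ERK phosphatase, stood at 0.41 (SE 0.17, adjusted p = 0.551). Mean Dusp5 levels were 17.6 CPM in WT, 24.9 in Phlpp1 KO, 19 in Phlpp2 KO and 25.3 in Phlpp1/2 KO.

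Textbook targets of AP-1 and EGR did not share a direction, with 9 higher and 8 lower of 17 tested in the 6 against 6 Phlpp1 contrast. They had a median log2 fold change of 0.00 there, from -1.47 to 0.63, and of -0.08 in Phlpp1/2 KO against Phlpp2 KO. Mmp13, a collagenase of hypertrophic cartilage and an AP-1 target, had mean levels of 186 CPM in WT, 119 in Phlpp1 KO, 226 in Phlpp2 KO and 189 in Phlpp1/2 KO, and its log2 fold change of 0.67 (SE 0.22) in Phlpp1/2 KO against Phlpp1 KO had an adjusted p of 0.626. Lif, a cytokine, had 27.6 ± 4.27 CPM in WT, 60.5 ± 2.18 in Phlpp1 KO, 49.7 ± 26.5 in Phlpp2 KO and 54.4 ± 17.2 in Phlpp1/2 KO. Against WT its log2 fold changes were 1.14 (SE 0.36, adjusted p = 0.133), 0.85 (SE 0.36, adjusted p = 0.343) and 0.98 (SE 0.36, adjusted p = 0.355), and the libraries of Phlpp2 KO overlapped WT while those of the others did not.

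Because all cells were dissociated, frozen and replated, heat shock genes were read beside the members. Their sum over 9 genes was 2993 to 3261 CPM in WT, 3155 to 3615 in Phlpp1 KO, 3270.3 to 3752 in Phlpp2 KO and 3132 to 3764 in Phlpp1/2 KO, so that the libraries of Phlpp2 KO lay above those of WT, as Egr1 and Fos did, and the other knockouts overlapped WT. Single heat shock genes went both ways: mean Hsp90aa1 was 661 CPM in WT, 1001 in Phlpp1 KO, 981 in Phlpp2 KO and 814 in Phlpp1/2 KO, while mean Hspa1a was 10.4, 6.22, 7.44 and 6.93 CPM. Macrophage and blood cell markers, 7 genes, summed to 51.8 to 58.7 CPM in WT, 43.3 to 48.9 in Phlpp1 KO, 46.5 to 59.7 in Phlpp2 KO and 46.9 to 65.8 in Phlpp1/2 KO. Skeletal muscle markers, 7 genes, ranged most, from 15.5 to 76.5 CPM in WT against 8.28 to 35.7 in Phlpp1 KO, 4.83 to 11.8 in Phlpp2 KO and 10.7 to 20.6 in Phlpp1/2 KO, so that they were lower in Phlpp2 KO than in WT in every library while Egr1 and Fos were higher. Osteoblast markers, 5 genes, summed to 25.3 to 33.1 CPM in WT, 22.6 to 23.4 in Phlpp1 KO, 27 to 41.7 in Phlpp2 KO and 13.3 to 32.3 in Phlpp1/2 KO. In Phlpp1 KO, where Arc was called, the macrophage, osteoblast and neuron sums of every library lay below those of WT. Single macrophage markers went both ways there (3 higher and 4 lower of 7), as did osteoblast markers (2 higher and 1 lower of 3 tested). The 2 tested neuron markers were lower. Of all tested genes, 28.2% had no overlap in that comparison in either direction. The part of heat shock, macrophage, muscle, osteoblast and neuron RNA in the results was not tested. Fibroblast and perichondrial markers, 5 genes, summed to 665 to 1229 CPM over all libraries, endothelial markers to 2.49 to 10.5 and keratinocyte markers to 5.33 to 7.28. Erythroid markers summed to at most 0.572 CPM, with Hbb-bs and Hbb-bt at 0.

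The members did not form 1 pattern over the libraries. Over all 12 libraries, and with genotype differences included, Pearson's r of log2 CPM was 0.91 for Egr1 with Fos, 0.79 for Fosb with Arc and for Fosb with Fosl1, and -0.76 for Fosl2 with Arc. After each genotype's mean was removed, r was 0.58 for Egr1 with Fos, 0.74 for Egr1 with Arc, 0.81 for Fosl1 with Jun, 0.32 for Fosb with Arc and -0.61 for Fosl2 with Arc. These values describe 12 libraries that share genotype and culture, and carry no test. Within genotypes, WT 2 was the lowest of its group for 8 of 10 members and WT 1 the highest for 7. Phlpp2 KO 2 was the highest for 7, Phlpp1 KO 2 for 6, and Phlpp1/2 KO 2 for 5, namely Egr1, Egr2, Egr3, Fos and Arc.

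The genes most like Egr1 and Fos over the 12 libraries were chosen by the highest Pearson r of log2 CPM among tested genes. Predicted genes (Gm and a number), Riken clones, pseudogenes and genes without a symbol were left out of that ranking. For Egr1 they were Nup85 (0.93), Cdca4 (0.922), Rbm45 (0.918), Fos (0.907) and Rhno1 (0.893). For Fos they were Egr1 (0.907), Ssrp1 (0.895), Ier2 (0.873), Matn2 (0.872) and Rhno1 (0.869). Egr1 and Fos were thus in each other's list, and Ier2 was the other immediate early gene in either of them. Rhno1 appeared in both, with mean levels of 21.8 CPM in WT, 24.6 in Phlpp1 KO, 24.8 in Phlpp2 KO and 26.7 in Phlpp1/2 KO.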

How the data were processed

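RNA was measured in 12 samples by bulk sequencing of libraries made with the NEBNext Ultra II RNA kit, per the labels' protocols. The authors deposited unnormalized read counts for each gene in 1 table. The submitters' processing notes name bcl2fastq 2.17, STAR 2.5.2b, featureCounts in Subread 1.5.2 and the build mm10. No source used here gives the strand setting, the annotation release or how multiply mapped reads were counted. Of the counts, 0.00419% lay in 174 genes without a symbol. All 12 columns of per-sample values were used.

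The deposited counts were tested with edgeR 4.0.16 in R 4.3.3, with its filter for low counts (16565 genes kept, 32750 removed), TMM scaling, robust quasi-likelihood estimation and 1 model of genotype over 12 libraries (8 residual degrees of freedom, common biological coefficient of variation 0.105). P-values were adjusted by Benjamini-Hochberg over all tested genes. SE was obtained from the log2 fold change and the F statistic (their ratio, after taking the root of F), and SD is over 3 libraries or, in 6 against 6 contrasts, over 6. The step was tested on simulated data. CPM per kb used the summed exon length of GENCODE vM21 (mm10), the source of positions. Per-gene correlations used log2 CPM with a prior count of 2. Near-identical copies (95% identity or more, 150 aligned bases or more) were searched with BLAST+ 2.17.0, and the opposite-strand partners named in the text were the only matches. Lists named the 3 tested genes of at least 1 CPM with the smallest p in each contrast, of which the text gives some. Genes most like a member were the 5 with the highest r, leaving out predicted genes, Riken clones, pseudogenes and genes without a symbol. Dusp5 and Mmp13 means in every genotype, and the genes DESeq2 called, were added after their values were seen. Some results for single genes of the lists are not reported here. The members and the lists were chosen with earlier results of these data known. Alternatives were DESeq2 1.42.0, voom of limma 3.58.1, other scaling, no filter, fewer libraries and a replicate block.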

Additional observations from a re-analysis of the deposited data

How the results depend on the processing

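Over 1570 refitted values of single members, 1446 kept direction and side of the threshold, 47 kept direction and lost the call, 22 gained one, and 55 that were never called changed sign. None with a call reversed. The number of members called moved as follows, and the cause was not tested. With no filter it was 2 in Phlpp1 KO against WT (1 in the main analysis), 1 in Phlpp1/2 KO against WT (2) and 4 in the 6 against 6 Phlpp1 contrast (2). With DESeq2 it was 4 in Phlpp1 KO against WT, 5 in the 6 against 6 Phlpp1 contrast and 1 in that of Phlpp2 (0). With limma-voom it was 0 in Phlpp1 KO against WT, 1 in Phlpp1/2 KO against WT and 0 in Phlpp1/2 KO against Phlpp2 KO (1). With only the compared groups in the fit it was 3, 1 and 0 in those comparisons. Without both low-Xist libraries it was 0 in Phlpp1 KO against WT, 1 in Phlpp1/2 KO against WT, and 0 in Phlpp1/2 KO against Phlpp2 KO and in the 6 against 6 Phlpp1 contrast. With the replicate number as a block it was 0 in Phlpp1/2 KO against WT and in Phlpp1/2 KO against Phlpp2 KO, 1 in Phlpp1 KO against WT and 2 in the 6 against 6 Phlpp1 contrast. Deviations of 18 same-numbered pairs of libraries correlated at -0.156 to 0.302, over 0.1 in 4, so the numbers were not treated as pairs. Leaving out each library in turn gave 0 to 3 in Phlpp1 KO against WT, 0 to 2 in Phlpp1/2 KO against WT, 0 to 1 in Phlpp1/2 KO against Phlpp2 KO, 1 to 5 in the 6 against 6 Phlpp1 contrast and 0 in the other 4 contrasts. Scaling by DESeq2 size factors or by library totals left these counts within 1.5 times of the main ones, and the former called the same members.

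Counts over all genes called moved more. With no filter, DESeq2 and the replicate block, in that order, they were 461, 995 and 245 in Phlpp1 KO against WT (89 in the main analysis), 110, 318 and 84 in Phlpp2 KO against WT (20), 102, 164 and 29 in Phlpp1/2 KO against WT (39), 32, 44 and 10 in Phlpp1/2 KO against Phlpp2 KO (12), 14, 20 and 2 in Phlpp1/2 KO against Phlpp1 KO (2), 183, 641 and 308 in the interaction (8), 274, 406 and 51 in the 6 against 6 Phlpp1 contrast (98) and 40, 59 and 12 in that of Phlpp2 (15). With only the compared groups they were 1163 in Phlpp1 KO against WT, 3 in Phlpp1/2 KO against Phlpp2 KO and 1 in Phlpp1/2 KO against Phlpp1 KO, where library totals gave 4. Leaving out 1 library at a time gave 16 to 647 in Phlpp1 KO against WT, 9 to 159 in Phlpp2 KO against WT, 18 to 57 in Phlpp1/2 KO against WT, 4 to 132 in Phlpp1/2 KO against Phlpp2 KO, 2 to 4 in Phlpp1/2 KO against Phlpp1 KO, 5 to 1196 in the interaction, 38 to 568 in the 6 against 6 Phlpp1 contrast and 10 to 20 in that of Phlpp2. The highest came without Phlpp1/2 KO 3 in Phlpp1 KO and Phlpp2 KO against WT, Phlpp1/2 KO against Phlpp2 KO and the interaction, and without Phlpp2 KO 1 in Phlpp1/2 KO against WT and the 6 against 6 Phlpp1 contrast, so the shares of genes called that stand beside the members depend on single libraries. Without both low-Xist libraries the counts were 18, 20, 28, 3, 2, 4, 28 and 14 in the same order. The counts of Egr3 (13 to 35 per library), Egr2 and Fosb were the lowest of the members and limit what these genes can show.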
